A study of Mus musculus with 9 samples.

Results

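The histone genes of mouse testis on postnatal day 7 were followed across 3 genotypes by RNA sequencing. They were taken as the protein-coding genes of the count table whose symbol carries a histone name (Hist1h to Hist4h, H2af, H3f3, H1f and the newer equivalents), which gave 83 of 56691 genes. Of these, 67 with a Hist1h to Hist4h symbol were classed as replication-dependent genes of the histone clusters, and the other 16 as variant or replacement genes. The classes follow the symbol alone and not what is known of each gene. Whole testes were labelled Gm1142-/- (titled GM1142KO), Gm1142-/- Gm4779-/- (DKO) or wild type (WT), with 3 libraries in each group. No background strain, sex or litter was given, and nothing in the labels said that the 3 libraries of a group came from separate animals, so p-values measure the spread between these libraries only. The labels do not describe the mutations, and both mutant groups are labelled Gm1142-/-.

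Gm1142 (8030474K03Rik in the annotation) had 65, 46 and 50 counts in the libraries labelled GM1142KO, 0, 0 and 0 in DKO, and 56, 50 and 41 in WT. Gm4779 had 88, 61 and 59 counts in the libraries labelled GM1142KO, 0 in each DKO library, and 42, 48 and 53 in WT. The counts were at 0 for both genes in DKO, whereas Gm1142 was not lower in the libraries labelled GM1142KO than in WT, so that group is called by its label throughout. Library totals were 4597447 to 5243756 counts in the libraries labelled GM1142KO, 4370124 to 8359594 in DKO and 4514237 to 5091624 in WT. Mitochondrially encoded genes took 32.5% to 38.9% of counts in the libraries labelled GM1142KO, 27.1% to 32.9% in DKO and 29.4% to 32.7% in WT. None of the germ cell, Sertoli cell or Leydig cell markers examined was at 0 in all libraries.

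Histones are the proteins around which DNA is wound. The core histones H2A, H2B, H3 and H4 form the nucleosome, and linker H1 histones bind where the DNA enters and leaves it. Replication-dependent histone genes lie in clusters and are transcribed mainly in S phase, and most of their mRNAs end in a conserved stem-loop in place of a poly(A) tail. Variant genes such as H3f3a, H3f3b and H2afz lie outside the clusters, carry introns in many cases, make polyadenylated mRNA and supply histones throughout the cell cycle. In the testis histone variants are known for their roles in meiosis and in the later replacement of histones by protamines.

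The stem-loop carries this difference between the classes, so it is shown for the 4 clustered genes called in the comparison of the libraries labelled GM1142KO with WT and, for comparison, for Hist4h4 and for the variant H2afx. Sequences were read from the GENCODE transcripts of the GRCm38 build, 5′ to 3′, and capitals mark the 16 bases of the stem-loop.
Hist1h1c: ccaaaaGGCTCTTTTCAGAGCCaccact
Hist1h1d: tcaaacGGCTCTTTTCAGAGCCacccac
Hist1h2be: accaaaGGCTCTTTTCAGAGCCacccaa
Hist1h3d: cccaaaGGCTCTTTTCAGAGCCaccccc
Hist4h4: cacaaaGGCCCTTTTCAGGGCCcacaaa
H2afx: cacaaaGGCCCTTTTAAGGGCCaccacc
The 4 clustered genes on chromosome 13 shown first had the same capital letters, including Hist1h1c, which was higher in the libraries labelled GM1142KO, and the 3 others, which were lower there. A match to the published stem-loop consensus was found in 46 of 67 clustered genes and in 2 variant genes, H2afx and H2bfm.

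The libraries were enriched for mRNA with oligo(dT) beads, and few clustered genes were counted at a level that could be tested. Of the 83 histone genes, 22 passed the filter on low counts, 12 clustered and 10 variant. Another 16 had 0 counts in all 9 libraries, of which 13 were clustered and 3 were variant genes. The remaining 45 had some counts, with at most 62 over all 9 libraries. Among the clustered genes, the annotated transcript ran more than 100 bases past the stem-loop in 23 genes, of which 10 were tested, and their median total was 56 counts. It ended within 100 bases of the stem-loop in another 23 genes, of which 0 were tested, with a median total of 5 counts. The 21 clustered genes with no match had a median total of 4 counts, and 2 of them were tested, Hist1h2bc and Hist2h2be. Genes with a longer annotated end also had more exonic bases, with a median of 1249, against 485 for those ending near the stem-loop and 405 for those with no match. Per kb of exon the median totals were 27.6, 10.3 and 9.73 counts in the same order. Of 29 RNAs known to lack a poly(A) tail, 18 were matched in the table, and their summed counts were 45 to 69 in the libraries labelled GM1142KO, 52 to 114 in DKO and 40 to 68 in WT.

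**Figure D1:**
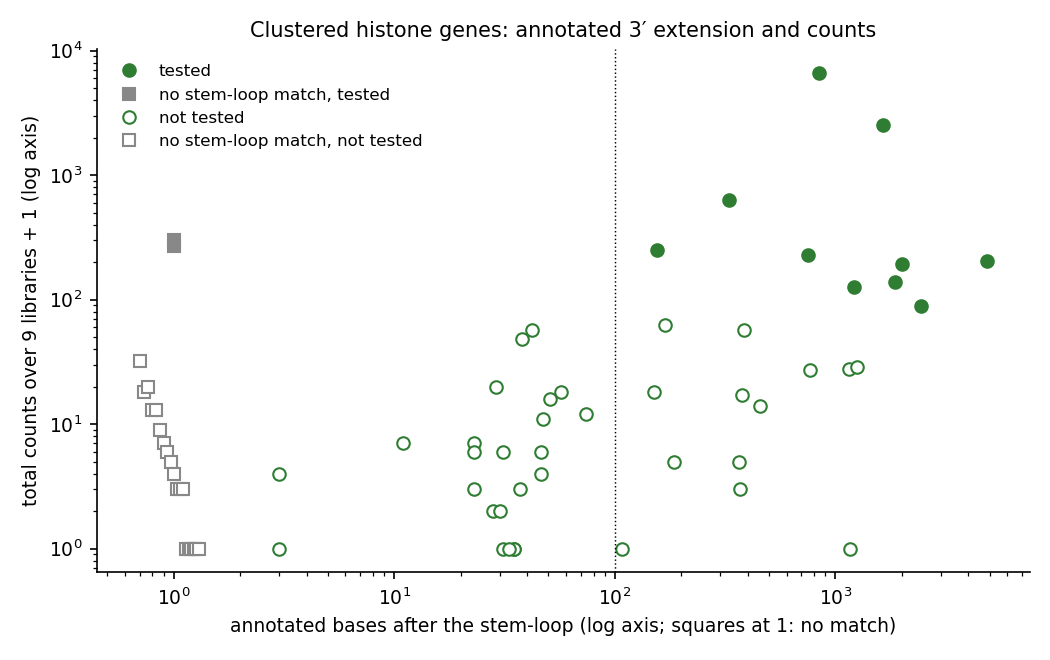
Each point is 1 of the 67 clustered histone genes, with the annotated bases after the stem-loop on the x axis and total counts over 9 libraries plus 1 on the y axis, both logarithmic. Squares near 1 are genes with no stem-loop match, spread sideways for legibility, and the dotted line stands at 100 bases. Of the genes to its right 10 were tested (filled), and 0 of those to its left with a stem-loop.

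The promoters of the clustered H1 genes Hist1h1c and Hist1h1d are shown because these genes moved in opposite directions, and those of H3f3b and H2afz because they moved with Hist1h1c. Each window is the 250 bases before the RefSeq start on GRCm38.p6, printed 5′ to 3′ on the gene's strand. The windows are chr13:23738557-23738806 (plus strand) for Hist1h1c, chr13:23554782-23555031 (plus) for Hist1h1d, chr11:116024505-116024754 (minus) for H3f3b and chr3:137864237-137864486 (plus) for H2afz. Capitals mark matches on either strand to the H1 promoter motif AAACACA, the CAAT box written as CCAAT, the TATA box written as TATANA, where N is any base, and the octamer written as ATTTGCAT, and matches can overlap.
Hist1h1c: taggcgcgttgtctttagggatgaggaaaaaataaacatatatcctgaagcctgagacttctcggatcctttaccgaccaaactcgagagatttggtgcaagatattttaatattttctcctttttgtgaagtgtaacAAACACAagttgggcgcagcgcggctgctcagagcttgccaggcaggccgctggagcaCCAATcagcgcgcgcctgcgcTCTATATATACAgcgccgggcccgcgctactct
Hist1h1d: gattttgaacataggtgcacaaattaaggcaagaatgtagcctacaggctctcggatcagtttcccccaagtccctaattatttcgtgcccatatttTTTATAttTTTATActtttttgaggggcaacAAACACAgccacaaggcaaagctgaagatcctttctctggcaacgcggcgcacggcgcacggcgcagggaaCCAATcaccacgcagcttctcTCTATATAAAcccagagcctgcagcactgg
H3f3b: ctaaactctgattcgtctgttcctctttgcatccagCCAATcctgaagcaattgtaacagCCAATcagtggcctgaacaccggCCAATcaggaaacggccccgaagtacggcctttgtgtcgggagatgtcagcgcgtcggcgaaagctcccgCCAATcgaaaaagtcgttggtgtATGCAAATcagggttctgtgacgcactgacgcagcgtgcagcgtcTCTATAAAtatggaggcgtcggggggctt
H2afz: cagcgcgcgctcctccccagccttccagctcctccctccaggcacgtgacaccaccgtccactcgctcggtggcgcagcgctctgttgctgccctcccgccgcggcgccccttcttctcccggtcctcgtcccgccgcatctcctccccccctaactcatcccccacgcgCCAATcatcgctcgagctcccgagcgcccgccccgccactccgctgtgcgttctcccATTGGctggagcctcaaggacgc
The windows of Hist1h1c and Hist1h1d each held the H1 promoter motif, the CAAT box and the TATA box. AAACACA was found in 5 of 6 windows of clustered H1 genes, against 6.25% of all 32851 RefSeq windows. CCAAT was found in 82.5% of 63 windows of clustered genes and in 66.7% of 15 windows of variant genes, against 33.9% of all windows. TATANA was found in 69.8% of clustered and 6.67% of variant windows, against 22.6% of all windows. ATTTGCAT, known from H2B promoters, was found in 22.2% of clustered and 6.67% of variant windows, against 1.60% of all windows. In all, 77 of 83 histone genes had a window.

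Levels are given as CPM, read counts scaled to a common library total with TMM-adjusted library sizes, and fold changes come from edgeR's quasi-likelihood test over all 17251 genes tested, with a gene called at an adjusted p below 0.05. By mean CPM per kb of exon, H3f3b was the highest histone gene in all 3 groups, at 245 in the libraries labelled GM1142KO, 151 in DKO and 163 in WT. Hist1h1c followed at 149 in the libraries labelled GM1142KO, 57.0 in DKO and 80.8 in WT, and H2afz at 115, 66.5 and 72.8 CPM per kb in those groups. The order of Hist1h1c and H2afz was not the same in DKO as in the other groups. All other tested histone genes were below 40 CPM per kb in each group.

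In the libraries labelled GM1142KO, the variant genes H3f3b, H2afz and H2afv and the clustered gene Hist1h1c were higher than in WT, and the clustered genes Hist1h1d, Hist1h2be and Hist1h3d were lower. The test called 7 of 22 histone genes, or 31.8%, beside 18.5% of all genes tested. Of the 7, 4 were higher, beside 10.2% of all genes, and 3 were lower, beside 8.38%. The median log2 fold change was 0.46 over the 10 variant genes and -0.61 over the 12 clustered genes, beside -0.01 over all genes. It was above 0 for 9 of 10 variant genes and below 0 for 10 of 12 clustered genes. All 3 called lower needed DKO or WT libraries, where they were higher, to pass the filter on low counts. The same held for the uncalled clustered genes Hist1h2bh and Hist4h4. Of the variant genes, H1fx and H1foo passed it through the mutant groups, where they were higher than in WT. H1fx had 9, 16 and 15 counts in the libraries labelled GM1142KO and 7, 9 and 7 in WT. The counts, both medians and the numbers above and below 0 thus include genes kept through groups where they were high. The libraries of the groups did not overlap for 10 of the 22, beside 35.9% of all genes tested. Of the 10, 5 were higher in the libraries labelled GM1142KO, beside 18.7% of all genes, and 5 were lower, beside 17.2%. Of the 61 histone genes with too few counts to be tested, 3 clustered genes were below WT without overlap and 0 above. These were Hist1h2bf, Hist1h1b and Hist1h3c, named after their values were seen, at 0 to 1 counts against 1 to 8 in WT. In DKO 4 untested genes lay below WT in the same way, Hist2h4, Hist1h2bf, Hist2h3c2 and Hist1h3g. The share over all untested genes was not computed, so nothing is read from these genes.

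H3f3b encodes the replacement H3 that is deposited outside replication. Its level was 834, 607 and 749 CPM in the libraries labelled GM1142KO, and 512, 489 and 457 CPM in WT. All 3 libraries labelled GM1142KO lay above all WT libraries, by 0.59 ± 0.13 on the log2 scale (SE), with an edgeR adjusted p of 0.00393. H3f3a encodes the same protein, and it had 155, 107 and 154 CPM in the libraries labelled GM1142KO and 127, 116 and 98.8 CPM in WT. Its groups overlapped, and it was not called (log2 fold change 0.28 ± 0.15, edgeR adjusted p = 0.204). Without replicate 2 labelled GM1142KO it was called, with a log2 fold change of 0.43 and an edgeR adjusted p of 0.0342. Of the 50-base words of H3f3a, 30.3% occur in other transcripts, and antisense genes overlap 22.8% of its exonic bases, so its counts are uncertain.

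H2afz and H2afv encode the H2A variants found at promoters and enhancers. H2afz had 187, 231 and 195 CPM in the libraries labelled GM1142KO and 122, 119 and 148 CPM in WT. H2afv had 20.4, 21.0 and 22.2 CPM in the libraries labelled GM1142KO and 11.3, 14.4 and 12.1 CPM in WT. Both were higher in all 3 libraries labelled GM1142KO than in any WT library. The difference on the log2 scale was 0.66 ± 0.13 for H2afz (SE), with an edgeR adjusted p of 0.00155. For H2afv it was 0.75 ± 0.22 (SE), with an edgeR adjusted p of 0.0199. Of the 50-base words of H2afz, 69.6% occur in other transcripts, among them 4 pseudogenes with 0 to 9 counts in total, so its counts are uncertain, while none of those of H2afv do.

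The other variant genes named by level did not pass the test. H2afx, whose product is phosphorylated at DNA breaks and on the sex chromosomes in meiosis, had 8.16, 3.58 and 5.54 CPM in the libraries labelled GM1142KO and 10.1, 10.6 and 9.26 CPM in WT. Its groups did not overlap, but it was not called (log2 fold change -0.78 ± 0.33, edgeR adjusted p = 0.109). Without replicate 1 labelled GM1142KO it was called, at -1.12 on the log2 scale with an edgeR adjusted p of 0.0398. H1f0, the linker histone of differentiated cells, had 114, 46.8 and 78.0 CPM in the libraries labelled GM1142KO and 65.9, 64.3 and 61.2 CPM in WT, and its groups overlapped. Without replicate 2 of both mutant groups, H1f0 was called at a log2 fold change of 0.59 (edgeR adjusted p = 0.0204). H2afy, a macroH2A gene, had 54.4, 61.1 and 61.6 CPM against 51.3, 44.7 and 59.0 CPM, and H2afy2, the other macroH2A gene, had 21.9, 18.4 and 21.3 CPM against 24.7, 13.2 and 21.5 CPM, in the libraries labelled GM1142KO and in WT. Both pairs of groups overlapped.

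**Figure D2:**
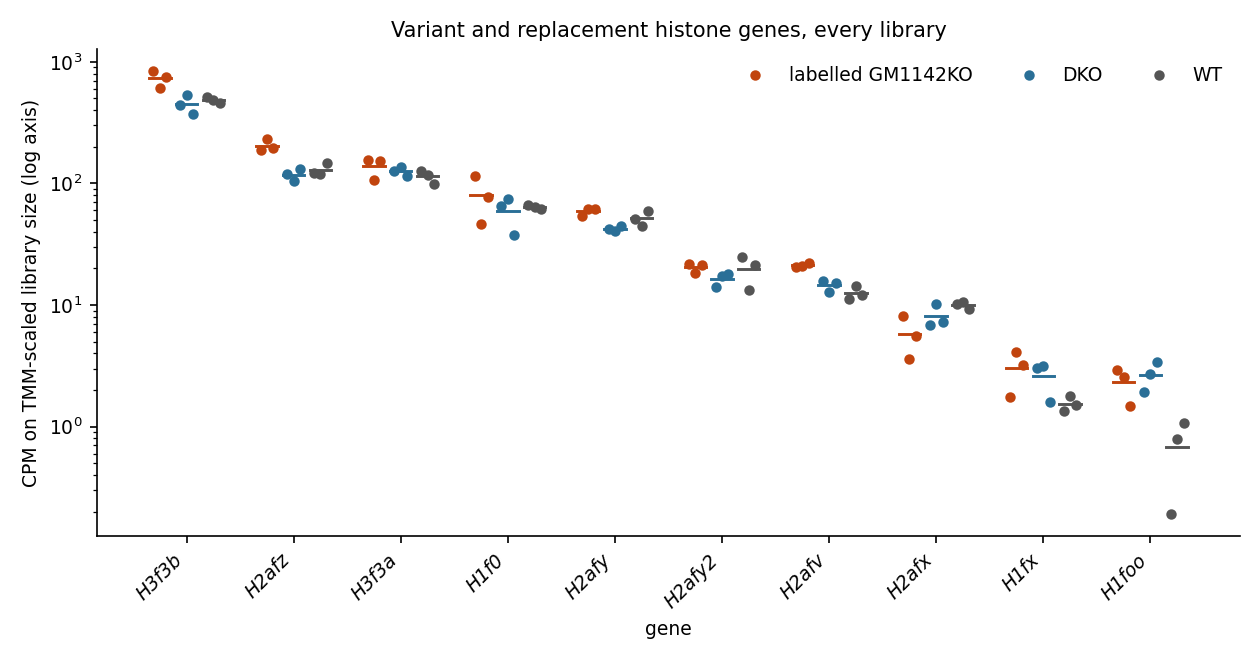
CPM of the 10 tested variant and replacement histone genes in every library, on a log axis, with horizontal lines at the group means. H3f3b, H2afz and H2afv sit higher in all 3 libraries labelled GM1142KO than in any WT library.

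Among the clustered genes, Hist1h1c, a linker H1 gene (H1f2 in RefSeq), moved opposite to the 3 other clustered genes called. It had 212, 265 and 221 CPM in the libraries labelled GM1142KO and 121, 123 and 134 CPM in WT, with no overlap. The gene was higher by 0.88 ± 0.14 on the log2 scale (SE), with an edgeR adjusted p of 0.000177. Hist1h1d, another linker H1 gene (H1f3), had 2.33, 1.79 and 1.70 CPM in the libraries labelled GM1142KO and 4.59, 8.67 and 6.46 CPM in WT. The groups again did not overlap, and edgeR gave a log2 fold change of -1.74 ± 0.45 (SE) with an adjusted p of 0.00975. The counts behind Hist1h1d were 12, 7 and 8 in the libraries labelled GM1142KO and 24, 44 and 30 in WT. It passed the filter on low counts, with its minimum of 10, through DKO and WT.

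Hist1h2be, an H2B gene, had 2, 4 and 1 counts in the libraries labelled GM1142KO and 36, 16 and 30 in WT, which is 0.388, 1.02 and 0.213 CPM against 6.89, 3.15 and 6.46 CPM. It passed the filter on low counts through DKO and WT. edgeR gave a log2 fold change of -3.35 ± 0.68 (SE) with an adjusted p of 0.00160, the lowest fold change of the 22. Hist1h3d, an H3 gene, had 1.75, 4.09 and 2.77 CPM in the libraries labelled GM1142KO and 6.70, 8.48 and 9.69 CPM in WT, without overlap. Here edgeR gave a log2 fold change of -1.55 ± 0.43 (SE) with an adjusted p of 0.0150. With 9, 16 and 13 counts in the libraries labelled GM1142KO, Hist1h3d also needed DKO or WT libraries to pass that filter. Hist1h2be shares 11.2% of its exonic bases with 2 other genes on its strand, and 17.9% of its 50-base words occur elsewhere, so its counts are uncertain. For Hist1h3d 24.8% of the words are shared, and for Hist1h1c and Hist1h1d 8.54% and 2.25%.

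The remaining clustered genes were not called. Hist3h2a, an H2A gene, had 45.8, 70.3 and 50.5 CPM in the libraries labelled GM1142KO and 56.1, 68.2 and 69.6 CPM in WT, and Hist1h4i, an H4 gene, had 10.7, 23.0 and 11.5 CPM against 18.4, 14.98 and 11.2 CPM in those groups. Both overlapped. Hist2h2be, an H2B gene, had 6.02, 2.56 and 5.75 CPM in the libraries labelled GM1142KO and 8.23, 7.29 and 12.3 CPM in WT. Its groups did not overlap, yet it was not called (log2 fold change -0.93 ± 0.41, edgeR adjusted p = 0.123). Hist1h2bc and Hist1h2bg, both H2B genes, and Hist1h2ac, an H2A gene, ranged from 2.98 to 6.60 CPM in the libraries labelled GM1142KO and from 5.52 to 8.42 CPM in WT, and each overlapped. Hist3h2a shares 32.99% of its exonic bases with Trim17 and an antisense transcript, and 49.7%, 30.6% and 28.9% of the words of Hist1h2bg, Hist1h2bc and Hist1h4i occur elsewhere, so their counts are uncertain too.

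**Figure D3:**
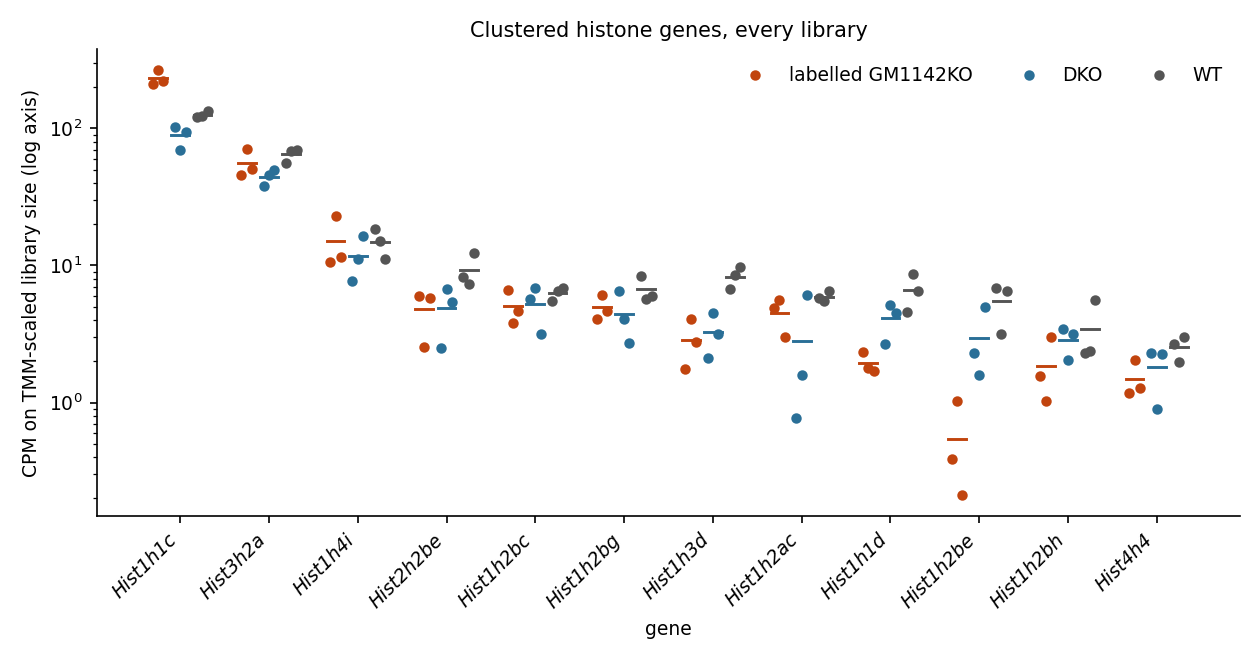
CPM of the 12 tested clustered histone genes in every library, on a log axis, with horizontal lines at the group means. Hist1h1c sits higher and Hist1h1d, Hist1h2be and Hist1h3d sit lower in all 3 libraries labelled GM1142KO than in any WT library.

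Hist1h1c decided the sum over the clustered genes. All 67 summed to 307 to 401 CPM in the libraries labelled GM1142KO and 263 to 297 CPM in WT, a log2 ratio of the group means of 0.30. Without Hist1h1c, a choice made after its share was seen, the other 66 summed to 94.6 to 137 CPM in the libraries labelled GM1142KO and 142 to 163 CPM in WT, a log2 ratio of -0.47. Hist1h1c made up 67.9% of the clustered sum in the libraries labelled GM1142KO, 47.7% in DKO and 45.3% in WT. By family, clustered H3 genes summed to 2.52 to 5.62 CPM in the libraries labelled GM1142KO and 9.86 to 12.1 CPM in WT, and clustered H2B genes to 18.2 to 22.2 CPM against 31.5 to 44.6 CPM. Most of the H3 sum was Hist1h3d, on average 2.87 of 3.78 CPM in the libraries labelled GM1142KO and 8.29 of 11.3 CPM in WT. The other clustered H3 genes had too few counts to be tested. Clustered H2A and H4 sums overlapped between these groups. The 16 variant genes summed to 1104 to 1402 CPM in the libraries labelled GM1142KO and 869 to 928 CPM in WT.

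**Figure D4:**
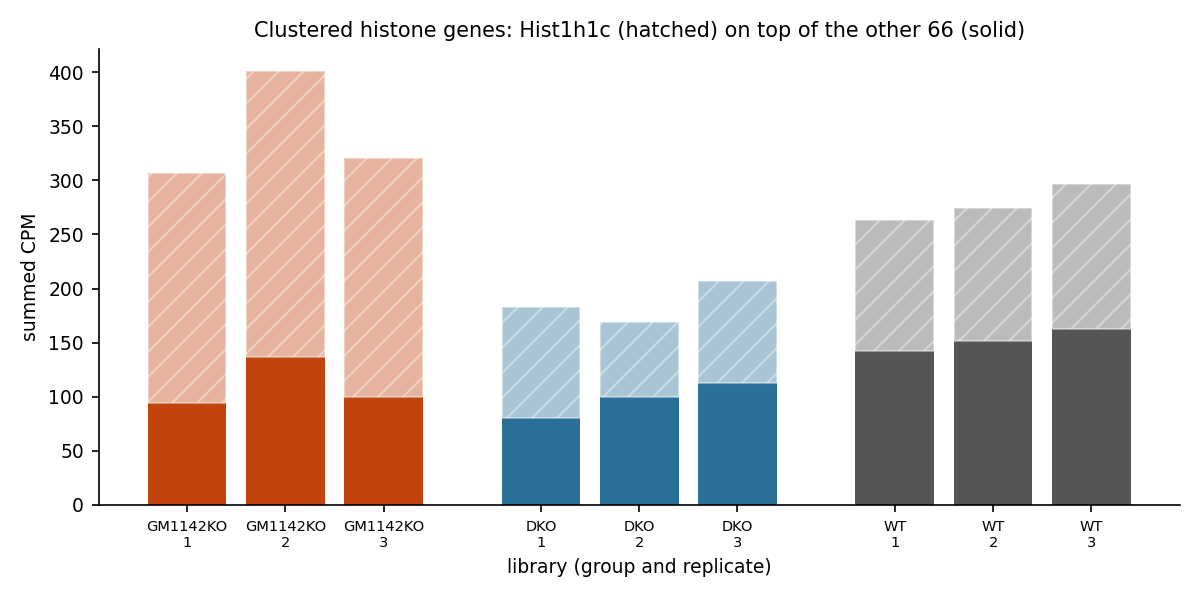
Summed CPM of the 67 clustered histone genes in each library, with Hist1h1c hatched above the other 66 (solid). The solid part spans 94.6 to 137 CPM in the libraries labelled GM1142KO, 80.6 to 113 CPM in DKO and 142 to 163 CPM in WT.

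Markers of the cells of the testis were counted in the same comparison, beside the 18.5% of all genes called. Leydig cell markers summed to 369 to 453 CPM in the libraries labelled GM1142KO and 622 to 878 CPM in WT, with 0 of 7 tested higher and 3 lower (42.9%). Sertoli cell markers summed to 2139 to 2341 CPM against 2689 to 2893 CPM, with 1 of 15 higher and 5 lower (40.0%). Germ cell markers summed to 454 to 586 CPM against 521 to 605 CPM, which overlapped, with 1 of 14 higher and 1 lower (14.3%, below that share). Red cell markers summed to 95.2 to 136 CPM against 68.7 to 82.9 CPM, with 1 of 5 higher and 0 lower (20.0%, near that share). Peritubular myoid cell markers had 1 of 5 lower (20.0%). No marker of macrophages, endothelium, or epididymis and ducts was called. The part of these markers and of the mitochondrial share in the histone differences was not tested. In bulk tissue, fewer cells of a type and less RNA per cell cannot be told apart. Without single libraries, 3 of the 7 calls were lost. H2afv was lost without replicate 3 labelled GM1142KO and without WT replicates 1 or 3 (edgeR adjusted p of 0.0735, 0.0889 and 0.0650), Hist1h1d without WT replicate 2 (0.0620), and Hist1h3d without replicate 1 labelled GM1142KO or WT replicate 3 (0.0620 and 0.0611).

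In DKO no histone gene was called against WT. The edgeR count was 0 of 22, beside 0.0927% of all genes tested (0.0464% higher and 0.0464% lower), and DESeq2 and limma-voom also called 0. At an unadjusted p below 0.05 there were 6 of 22, 5 clustered and 1 variant, beside 8.95% of all genes. The libraries did not overlap for 6 of 22, beside 15.9% of all genes, with 5 lower, beside 7.57%, and 1 higher, beside 8.28%. The log2 fold change was below 0 for all 12 tested clustered genes, with a median of -0.57, and the median over the 10 variant genes was -0.10, beside 0.02 over all genes. Hist1h2ac, Hist1h2be and Hist4h4 did not pass the filter on low counts through DKO alone and were kept with WT libraries, where they were higher. Hist1h2ac, with 4, 14 and 27 counts in DKO, was among the 5 clustered genes at an unadjusted p below 0.05. H1fx and H1foo were kept through the mutant groups. These counts and both medians thus include genes kept through groups where they were high. This comparison shares its WT libraries with the one above.

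The smallest adjusted p belonged to Hist1h1c, which had 103, 69.9 and 94.2 CPM in DKO and 121, 123 and 134 CPM in WT. All DKO libraries lay below all WT libraries (log2 fold change -0.51 ± 0.14, edgeR adjusted p = 0.256). Hist1h3d had 2.10, 4.51 and 3.17 CPM in DKO and 6.70, 8.48 and 9.69 CPM in WT, and Hist3h2a had 38.1, 45.6 and 49.6 CPM against 56.1, 68.2 and 69.6 CPM. Neither overlapped, with log2 fold changes of -1.30 ± 0.41 and -0.54 ± 0.17 (edgeR adjusted p = 0.324 and 0.323). Hist2h2be, at 2.49, 6.77 and 5.44 CPM in DKO and 8.23, 7.29 and 12.3 CPM in WT, was the fourth clustered gene without overlap.

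Hist1h1d and Hist1h2be, both lower in the libraries labelled GM1142KO, overlapped between DKO and WT. Hist1h1d had 2.68, 5.19 and 4.53 CPM in DKO and 4.59, 8.67 and 6.46 CPM in WT. Hist1h2be had 2.30, 1.58 and 4.98 CPM in DKO and 6.89, 3.15 and 6.46 CPM in WT. Among the variants, H3f3b had 444, 532 and 371 CPM in DKO and 512, 489 and 457 CPM in WT, and H2afz had 119, 105 and 131 CPM against 122, 119 and 148 CPM. Both overlapped. H1foo, a linker histone known from oocytes and named here after its values were seen, was the variant at an unadjusted p below 0.05, with 10, 24 and 15 counts in DKO and 1, 4 and 5 counts in WT (edgeR adjusted p = 0.385). The libraries labelled GM1142KO had 15, 10 and 7 counts, also above WT without overlap (log2 fold change 1.75 ± 0.68, edgeR adjusted p = 0.0810). With all libraries thinned to the shallowest, H1foo was called in that comparison, at 2.23 (edgeR adjusted p = 0.0300). It passed the filter on low counts through the mutant groups, where it was high.

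The clustered sum without Hist1h1c was 80.6 to 113 CPM in DKO and 142 to 163 CPM in WT, with no overlap and a log2 ratio of -0.64. With Hist1h1c it was 170 to 207 CPM in DKO and 263 to 297 CPM in WT (log2 ratio -0.58). Clustered H3 genes summed to 3.06 to 5.64 CPM in DKO and 9.86 to 12.1 CPM in WT, and clustered H2B genes to 23.0 to 24.7 CPM against 31.5 to 44.6 CPM. Hist1h3d again made up most of the H3 sum, on average 3.26 of 4.26 CPM in DKO. Variant genes summed to 745 to 936 CPM in DKO and 869 to 928 CPM in WT, which overlapped. Germ cell markers summed to 794 to 959 CPM in DKO and 521 to 605 CPM in WT, with 2 of 14 called higher, Dazl and Uchl1 (14.3%, beside 0.0927% of all genes). Epididymis and duct markers summed to 40.9 to 67.9 CPM in DKO and 83.6 to 106 CPM in WT, with 0 of 7 called and a median log2 fold change of -0.87. No other cell type list had a called gene. The part of these markers in the histone levels was not tested.

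The direct comparison of DKO with the libraries labelled GM1142KO called 5 of 22 histone genes, or 22.7%, beside 19.1% of all genes tested. Of these, 4 were lower, beside 10.1% of all genes, and 1 was higher, beside 9.07%. The median log2 fold change was -0.38 over the variant genes and 0.06 over the clustered genes, beside 0.03 over all genes. Hist1h1c fell to 103, 69.9 and 94.2 CPM in DKO, against 212, 265 and 221 CPM in the libraries labelled GM1142KO. edgeR gave a log2 fold change of -1.39 ± 0.14 (SE) with an adjusted p of 1.34e-06, and no libraries overlapped. H2afz and H3f3b were also lower in every DKO library than in any library labelled GM1142KO. Their log2 fold changes were -0.79 ± 0.13 and -0.70 ± 0.13 (SE; edgeR adjusted p = 0.000315 and 0.00104).

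H2afy was the fourth, at 42.1, 40.4 and 44.4 CPM in DKO and 54.4, 61.1 and 61.6 CPM in the libraries labelled GM1142KO. The log2 fold change of -0.48 ± 0.15 (SE) had an edgeR adjusted p of 0.0260. The antisense gene Gm47071 overlaps 7.36% of the exonic bases of H2afy, and reads of the pair cannot be told apart without strand. H2afv had 15.9, 12.7 and 15.2 CPM in DKO and 20.4, 21.0 and 22.2 CPM in the libraries labelled GM1142KO, without overlap, and was not called (log2 fold change -0.54 ± 0.21, edgeR adjusted p = 0.0822). Hist1h2be was the gene called higher, with 12, 14 and 22 counts in DKO and 2, 4 and 1 in the libraries labelled GM1142KO (log2 fold change 2.41 ± 0.71, edgeR adjusted p = 0.0208). As said above, it passed the filter on low counts through DKO and WT, where it was higher. Hist1h1d was higher in every DKO library but was not called (log2 fold change 1.09 ± 0.46, edgeR adjusted p = 0.103). The clustered sum without Hist1h1c overlapped between the groups, at 80.6 to 113 CPM in DKO and 94.6 to 137 CPM in the libraries labelled GM1142KO. Hist1h2be was lost with limma-voom (adjusted p = 0.0985) and without replicates 1 or 3 labelled GM1142KO or DKO replicate 3 (edgeR adjusted p of 0.0643, 0.0914 and 0.0988). H2afy was lost without replicates 2 or 3 labelled GM1142KO or DKO replicates 1 or 2 (edgeR adjusted p of 0.0607, 0.0942, 0.0596 and 0.0991). It was also lost with no filter on low counts (0.0556) and without replicate 2 of both groups (0.118).

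Cell type markers moved in this comparison too, beside 19.1% of all genes called (9.07% higher and 10.1% lower). Germ cell markers summed to 794 to 959 CPM in DKO and 454 to 586 CPM in the libraries labelled GM1142KO. Of these markers, 7 of 14 were higher and 0 lower, the highest share called in any cell type list. Sertoli cell markers summed to 2402 to 3024 CPM against 2139 to 2341 CPM, with 6 of 15 higher and 1 lower (46.7%). Leydig cell markers summed to 561 to 763 CPM against 369 to 453 CPM, with 3 of 7 higher and 0 lower (42.9%). Red cell markers summed to 62.4 to 82.7 CPM against 95.2 to 136 CPM, with 0 of 5 higher and 2 lower (40.0%). Endothelium markers had 1 of 6 higher and 1 lower (33.3%). Epididymis and duct markers had 0 of 7 higher and 1 lower (14.3%, below the share of all genes). No marker of macrophages or peritubular myoid cells was called. The part of these markers in the differences between DKO and the libraries labelled GM1142KO was not tested.

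**Figure D5:**
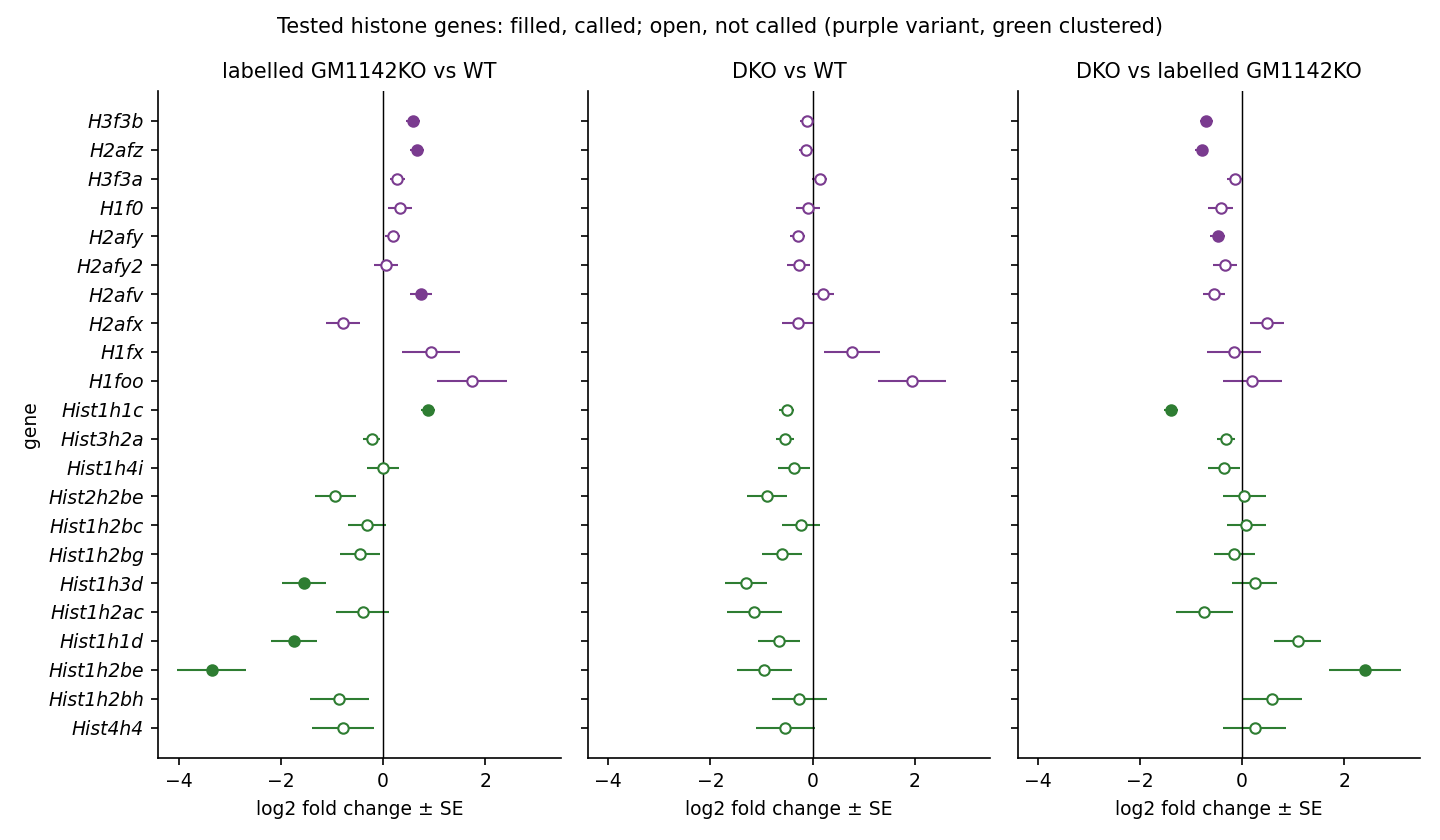
Log2 fold changes with SE of the 22 tested histone genes in the 3 comparisons, variant genes in purple above clustered genes in green, with filled points for called genes. Called genes number 7 for the libraries labelled GM1142KO against WT, 0 for DKO against WT and 5 for DKO against the libraries labelled GM1142KO.

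Genes that process, chaperone and accompany histones were examined as lists. Of 26 genes for 3′ end processing and stability of histone mRNA, 5 were higher and 1 was lower in the libraries labelled GM1142KO than in WT, which is 23.1% beside the 18.5% of all genes given above, and the median log2 fold change was 0.16. Snrpd3, an Sm protein shared with the U7 particle, averaged 114 ± 13.8 CPM in the libraries labelled GM1142KO and 41.6 ± 1.91 CPM in WT (SD, n = 3 each; log2 fold change 1.45, edgeR adjusted p = 5.16e-06). Cpsf1 and Cstf2, of the cleavage machinery, had log2 fold changes of 0.67 and 0.55 and Cpsf2 one of -0.81 (edgeR adjusted p = 0.00158, 0.0115 and 0.00217). Slbp, which binds the stem-loop, and Npat, the coactivator of clustered histone genes, were the other 2 called higher, at 0.49 and 0.51 (edgeR adjusted p = 0.0136 and 0.0492), and Npat is named beyond the 4 genes with the smallest p.

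Of 34 histone chaperone and deposition genes, 4 were higher and 2 were lower in the libraries labelled GM1142KO than in WT, with a median log2 fold change of -0.03, and the 17.6% called lay below the share of all genes. Chaf1b and Chaf1a, subunits of the chaperone that deposits histones at replication forks, had log2 fold changes of 1.04 and 0.88, and Asf1a, an H3 and H4 chaperone, one of 0.80 (edgeR adjusted p = 0.000572, 0.000648 and 0.0136). Hjurp, the chaperone of the centromeric H3, fell by 0.39 on the log2 scale (edgeR adjusted p = 0.0262). Of 33 S phase genes, 5 were higher and 2 were lower, or 21.2%, with a median of 0.25. Lig1 and Mcm7 rose by 0.79 and 0.51 and Cdc7 fell by 1.10 on the log2 scale (edgeR adjusted p = 0.000221, 0.0110 and 1.22e-05). Of 16 genes of G2 and mitosis, 3 were higher and 1 was lower, or 25.0%, led by Cdk1 at a log2 fold change of 1.34 (edgeR adjusted p = 1.53e-06).

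Between DKO and WT, edgeR called 0 genes of these 4 lists, and the smallest adjusted p among them was 0.264, for Tut7, an enzyme that adds uridines to histone mRNA. Between DKO and the libraries labelled GM1142KO, 4 processing genes were higher and 3 lower, 5 chaperone genes were higher and 5 lower, 3 S phase genes were higher and 4 lower, and 1 mitosis gene was higher and 3 lower. These counts are 26.9% of the processing, 29.4% of the chaperone, 21.2% of the S phase and 25.0% of the mitosis genes, beside 19.1% of all genes. Snrpd3 (-1.29), Chaf1b (-1.12) and Cdk1 (-1.41) were lower in DKO by log2 fold change, with edgeR adjusted p of 1.98e-05, 0.000298 and 8.40e-07. Cdc7 averaged 115 ± 13.1 CPM in DKO and 57.7 ± 4.08 CPM in the libraries labelled GM1142KO (SD, n = 3 each; edgeR adjusted p = 4.10e-05). Cpsf2 (0.95) and Plk1 (1.07), the mitotic kinase and the mitosis gene called higher, were also higher in DKO by log2 fold change (edgeR adjusted p = 0.000536 and 0.00448). The 8 genes for chromatin replacement in late spermatids had 115 counts in all, and none was tested.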

How the data were processed

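Per the labels' protocols, mRNA of mouse testes was captured on oligo(dT) beads before libraries were made. The values are raw read counts per gene as deposited by the authors. The tools in the submitters' processing notes were featureCounts, STAR, Bowtie2 and cutadapt, on build mm39. How multimapping reads were handled, the strand option and the gene annotation are not given in the sources used here, and each can move counts between near-identical or overlapping histone genes. Symbols came from GENCODE on GRCm38, so no gene coordinates are given on mm39.

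Counts were tested with edgeR 4.0.16 (limma 3.58.1, R 4.3.3) in a single quasi-likelihood fit of all 9 libraries with 1 term per group. Genes passed the default filter (minimum count 10, minimum total 15), which left 17251, and libraries were scaled by TMM (factors 0.856 to 1.07). Calls used a Benjamini-Hochberg adjusted p below 0.05 over all genes tested. The SE is the absolute log2 fold change divided by the square root of F. The 50-base words and stem-loops were searched in GENCODE transcripts, and promoter windows are from RefSeq. The script was tested on simulated data. DESeq2 1.42.0 was an alternative. Genes named are those called in any comparison, the 8 with the highest mean CPM in each class, and up to 4 called per supporting list. The histone genes and the lists were chosen with earlier results of these data known. Same-numbered libraries correlated at -0.267 to 0.101 around their group means, so the numbers were not taken as pairs. Even so, the same-numbered WT library was the best match for every library labelled GM1142KO and for DKO replicates 1 and 3. Between DKO and the libraries labelled GM1142KO no same-numbered library was the best match. Calls with the number as a block are given below. With 4370124 counts in the shallowest library, 3 counts were 0.679 CPM there.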

Additional observations from a re-analysis of the deposited data

How the results depend on the processing

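Each comparison was recomputed with other scalings, filters, tests, samples and depth and without each library. Of 291 values under these alternatives for 15 results, 272 stayed within 1.5 times (counts of calls) or 1 SD (log2 ratios of sums), and 19 moved. Scaling by median of ratios or without mitochondrial genes moved none of these 291. Of 590 further values for single genes, 561 kept their direction and side of the threshold, and 1 reversed its direction.

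For the libraries labelled GM1142KO against WT, variant genes called numbered 5 without replicate 2 of both mutant groups and 0 with a log2 fold minimum of 1, against 3. Supporting list genes called numbered 13 to 26 without single libraries and 4 with the fold minimum, against 23. The log2 ratio of the clustered sum was -0.47 without Hist1h1c, against 0.30. The log2 fold change of H1f0 was -0.026 to 0.59 without single libraries and turned negative without replicate 1 labelled GM1142KO, against 0.33. The cause was not tested.

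For DKO against WT, DESeq2 called 1 supporting list gene, against 0. For DKO against the libraries labelled GM1142KO, clustered genes called numbered 1 in a fit of these groups alone, 1 with limma-voom and 1 to 2 without single libraries, against 2. Variant genes called numbered 0 with the fold minimum, against 3. Supporting list genes called numbered 16 without replicate 2 of both groups, 6 with the fold minimum and 18 to 29 without single libraries, against 28. The clustered sum was -0.69 without replicate 2 of both and -0.18 without Hist1h1c, against -0.88. The variant sum was -0.76 without replicate 2 of both, against -0.59. The cause was not tested.

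Over all genes, DKO against WT gave 16 calls, and gave 110 with no filter, 61 with DESeq2, 28 in a fit of these groups alone, 24 without replicate 2 of both, 8 without mitochondrial genes and 9 to 45 without single libraries. The libraries labelled GM1142KO against WT gave 3196, and 2037 without WT replicate 1. DKO against the libraries labelled GM1142KO gave 3301, and 2128 without DKO replicate 2 and 2004 without replicate 2 of both.

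With the replicate number as a block, 4 clustered and 3 variant genes were called for the libraries labelled GM1142KO against WT, 0 and 0 for DKO against WT, and 2 and 3 for DKO against the libraries labelled GM1142KO. These counts equal those without the block.

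At this depth the 61 untested histone genes could not be compared. Genes with few counts, such as Hist1h2be, carry wide errors.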
